A study of Homo sapiens with 28 samples.

Results

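The m6A peaks of chromatin-associated RNA in K562 cells that carried a control hairpin (Control) were compared with those of unmodified K562 cells (WT). K562 is a human leukaemia line with erythroid features. The comparison used the peak lists of 4 m6A immunoprecipitation (IP) libraries, 2 Control and 2 WT, out of 14 such lists and 28 libraries in the series. The Control cells were a stable line made by lentiviral transduction of a non-targeting hairpin and puromycin selection, and the WT cells carried no hairpin. The same kind of vector gave 2 K562 libraries with a hairpin against RBFOX2 (KD), which took no part in choosing the regions. They were used to look regions up and, under the same rule, as a group beside the other pairs. The lines HepG2 (liver) and NB4 (promyelocytic leukaemia) made up the rest of the series. The study's methods speak of biological replicates, but the labels do not name separate cultures, so p-values measure the spread between these libraries, part of which may be technical. Transduction, the hairpin and selection cannot be told apart from any other difference between the pairs of libraries.

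The 4 lists held 162712 peaks on chromosomes 1 to 22 and X. Overlapping peaks on the same strand were merged into 56449 regions. Of these, 23702 regions (42.0%) had a peak in all 4 lists. A region with a peak in both Control lists and in neither WT list was called Control-only, and there were 2977 such regions, 5.27% of all regions. The reverse, WT-only, held 8463 regions, 15% of all regions. The remaining regions had a peak in 1 library alone or in some other mixture of lists. The largest of those classes was the 5139 regions found in Control 2 alone, while Control 1 alone held 2717, WT 1 alone 2963 and WT 2 alone 2499.

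N6-methyladenosine (m6A) is an internal modification of RNA that the METTL3-METTL14 methyltransferase complex writes, mostly at adenosines in the consensus DRACH, of which GGACU is the preferred form. RNA that stays with chromatin includes introns of nascent transcripts, promoter and antisense RNA and nuclear long noncoding RNA, and its methylation has been linked to transcript turnover and to the state of the nearby chromatin. An m6A IP enriches fragments that an antibody binds, and an antibody can also bring down RNA that carries no m6A.

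Examples of the sequences described below were chosen for the trait they show, by rank among regions with that trait outside UTRs and with 1 copy in the genome, and they do not stand for all regions of a class. Purine-rich sequence was found in 4.83% of WT-only regions, and GGACU in 28.8% of Control-only regions. Each is 101 bases of the hg38 genome around the highest point (summit) of the strongest peak, read 5′ to 3′ on the strand of the peak. In the first 5, all WT-only, capitals mark runs of at least 10 purines (A or G).
chr14:76272789-76272889, plus strand, intergenic: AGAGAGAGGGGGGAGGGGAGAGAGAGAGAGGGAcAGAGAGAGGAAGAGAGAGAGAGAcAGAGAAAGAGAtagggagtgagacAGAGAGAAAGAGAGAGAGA
AP3S2, chr15:89859273-89859373, minus strand, intron 4: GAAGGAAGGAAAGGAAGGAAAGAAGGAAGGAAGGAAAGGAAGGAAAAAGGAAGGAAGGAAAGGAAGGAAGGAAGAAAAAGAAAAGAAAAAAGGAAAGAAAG
TNFRSF8, chr1:12113587-12113687, plus strand, intron 7: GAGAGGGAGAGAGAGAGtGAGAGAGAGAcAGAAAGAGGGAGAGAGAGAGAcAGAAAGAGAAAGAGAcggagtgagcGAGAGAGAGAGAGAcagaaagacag
GNGT1, chr7:93717558-93717658, plus strand, intron: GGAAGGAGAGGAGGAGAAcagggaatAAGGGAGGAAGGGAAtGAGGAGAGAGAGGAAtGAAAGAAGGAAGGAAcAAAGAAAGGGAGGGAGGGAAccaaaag
LINC02780, chr1:4007079-4007179, plus strand, intron: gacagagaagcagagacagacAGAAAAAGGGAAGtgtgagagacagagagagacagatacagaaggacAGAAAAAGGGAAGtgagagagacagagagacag
The next 3 are from Control-only regions, and capitals mark GGACT, the DNA form of GGACU.
EGFL7, chr9:136667141-136667241, plus strand, intron 3: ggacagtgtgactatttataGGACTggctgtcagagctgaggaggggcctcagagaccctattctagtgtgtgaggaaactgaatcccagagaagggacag
RADIL, chr7:4824656-4824756, minus strand, intron: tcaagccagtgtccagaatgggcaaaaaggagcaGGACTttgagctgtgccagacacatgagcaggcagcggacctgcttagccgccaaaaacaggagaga
KDM2A, chr11:67240177-67240277, plus strand, coding exon: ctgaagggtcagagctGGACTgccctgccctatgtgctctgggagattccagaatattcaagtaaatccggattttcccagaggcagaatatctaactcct
The last pair comes from regions present in all 4 lists, with capitals again on purine runs, and shows that such sequence was not absent from the Control lists.
LINC02840, chr6:152811988-152812088, minus strand, intron: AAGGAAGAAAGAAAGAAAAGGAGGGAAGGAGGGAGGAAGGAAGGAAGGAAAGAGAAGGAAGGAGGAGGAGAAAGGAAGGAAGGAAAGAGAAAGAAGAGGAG
TGFB1, chr19:41331795-41331895, minus strand, intron 6: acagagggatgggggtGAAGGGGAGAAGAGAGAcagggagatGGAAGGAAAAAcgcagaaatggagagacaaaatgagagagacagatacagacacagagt
All 101 bases of the AP3S2 and LINC02840 windows were purines. No GGACT was found in the 5 WT-only windows shown, nor in the shared pair. Those windows were picked for purines, which leaves few places for a motif with C and T.

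Purine-rich sequence set the groups apart. A peak was called purine-rich where at least 80% of the 151 bases around its summit were A or G on the strand of the peak, a definition chosen after the sequences had been seen. Such peaks made up 0.0733% of the list of Control 1, 0.0988% of Control 2, 1.21% of WT 1 and 1.17% of WT 2. The groups did not overlap, and the difference of −1.11 percentage points (Control minus WT) had the smallest p that 2 against 2 libraries allow (exact permutation test, two-sided, p = 0.333). Among WT-only regions, 409 (4.83%, Wilson 95% interval 4.40 to 5.31%) were purine-rich. Among Control-only regions 0 of 2977 were (Wilson 95% interval 0 to 0.129%). Intervals of this kind cover counting error only. In regions of all 4 lists the number was 26, or 0.110%.

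The purine-rich WT-only regions lay mostly outside exons, with 246 in introns, 87 between genes and 52 antisense to a gene. GGACU was present in 3.67% of their windows and DRACH in 83.9%, against 18.7% and 92.3% of the windows of all WT-only regions. Windows chosen for purines hold few C and U by definition, which limits both motifs, so these shares are not a separate trait. They were the most frequent among the strongest WT-only regions. The −log10 q that the peak caller gave each peak was turned into a percentile within its own list, where 100 is the strongest peak. Of the 98 WT-only regions with a mean percentile above 90, 59 were purine-rich, against 49 of the 2999 below 25. The KD lists, which came from cells with a hairpin vector too, covered 1.22% and 0.978% of the 409 regions. The HepG2 lists covered 30.8% and 31.5% of them, and the 6 NB4 lists covered between 32.8% and 46.5%.

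**Figure D1:**
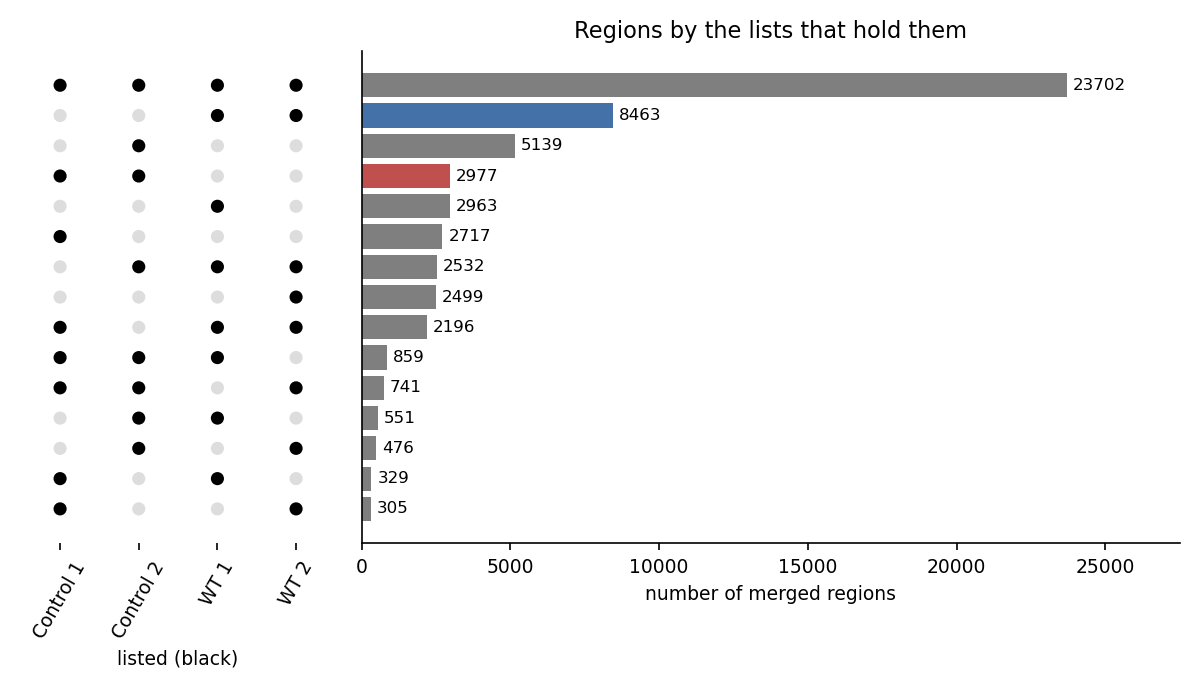
Bars give the number of merged regions for each combination of the 4 lists, and black dots name the lists that hold a peak. The red bar is the 2977 Control-only regions and the blue bar the 8463 WT-only regions, both short of the 23702 regions in all lists.

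Before the members are described further, the 4 libraries differed in depth and shape. Control 1 held 36844 peaks, Control 2 38468, WT 1 44043 and WT 2 43357. The groups did not overlap, with a difference of −0.22 on the log2 scale (exact permutation test, two-sided, p = 0.333). The effective reads of each whole library were estimated from the lowest local background, recovered from the fold and p of its peaks. They came to 14.8 M for Control 1, 19.5 M for Control 2, 25.6 M for WT 1 and 24.9 M for WT 2. Fewer peaks in Control thus went with fewer reads, and the part of depth in the number of peaks was addressed by scaling every summit to the shallowest library. In lists matched that way, 3010 regions were Control-only and 8337 WT-only, close to the counts as deposited. Scaling reached the summit value only and not the width that the caller demands. The local background of a peak equalled the list-wide background at 71.6% of peaks in Control 1, 69.2% in Control 2, 64.7% in WT 1 and 65.0% in WT 2, so most folds are set against 1 value per list and move with the level of the transcript. The part of transcript level in the results was not tested.

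Control 2 stood apart from Control 1. Its median peak was 343 bases wide, against 312 in Control 1, 310 in WT 1 and 311 in WT 2, and it covered 19470 kb against 16360 kb in Control 1. The share of merged regions held by both of a pair of lists was 63.8% for the Control pair and 79.8% for the WT pair. Control 1 shared 75.8% and 73.4% of regions with the KD lists, more than with its own replicate. Control 1 shared 58.1% and 58.4% with the WT lists, and Control 2 shared 54.8% and 54.9%. Because a Control-only region needs a peak in both Control lists, leaving out Control 1 raised the count from 2977 to 8200, and leaving out Control 2 raised it to 6004. The 409 purine-rich WT-only regions became 413 and 427 in the same settings. The median width differed by 17 bases between groups (exact permutation test, two-sided, p = 0.333), by 1.5 bases without Control 2 and by 32.5 bases without Control 1. With lists cut to equal size the difference turned to −12 bases. The files also differed in format, since the WT and HepG2 lists print large values to 5 decimals and the Control, KD and NB4 lists to 3. This format cannot be told apart from the groups in K562.

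**Figure D2:**
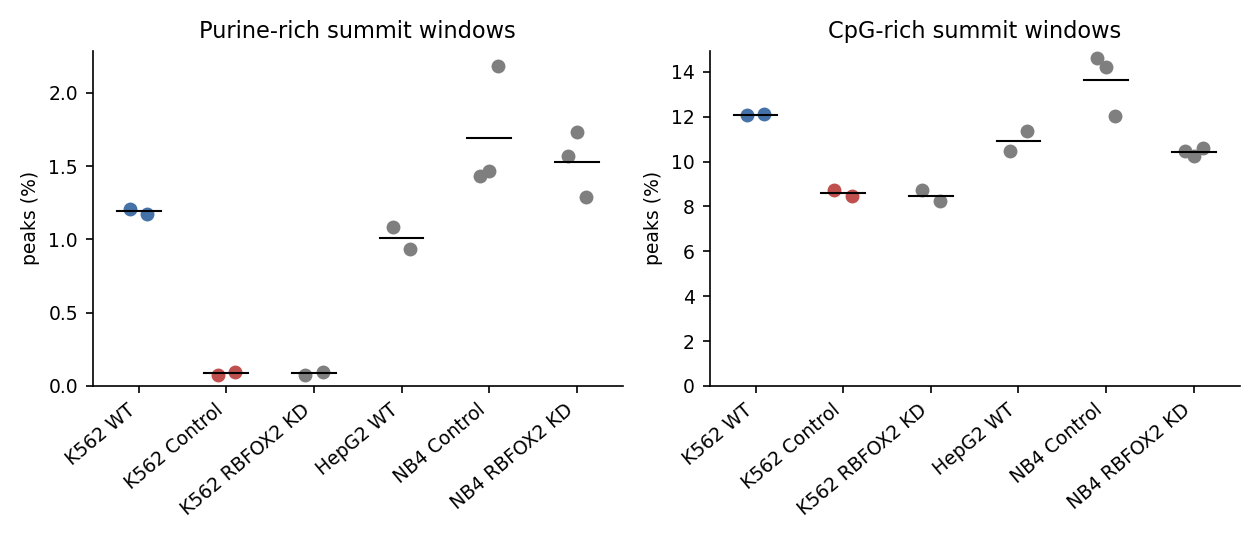
Each point is 1 library and each line a group mean, with the share of peaks (%) whose summit window is purine-rich on the left and CpG-rich on the right. Control and KD libraries of K562 lie below 0.1% purine-rich, and the WT libraries lie at 1.21% and 1.17%.

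The gene parts of the peaks differed modestly between the groups. A promoter peak had its summit from 1000 bases upstream to 100 bases downstream of a transcript start on either strand. Promoter peaks were 19.1% of Control 1, 20.2% of Control 2, 21.5% of WT 1 and 21.5% of WT 2, lower in both Control lists (difference −1.87 points, exact permutation test, two-sided, p = 0.333). The 5′UTR share was 4.0% and 3.90% in Control against 5.13% and 5.10% in WT. The 3′UTR share went the other way, with 12.6% and 12% in Control and 10.7% and 10.9% in WT. Intron peaks made up 34.7% and 34.9% of the Control lists and 35.6% and 35.2% of the WT lists, a difference of −0.567 points that turned to 0.0249 with basic transcripts only and to 0.609 with lists cut to equal size. Antisense peaks overlapped between the groups, at 8.45% and 7.91% in Control and 8.43% and 8.57% in WT.

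Gene parts were compared among the group-only regions too. Promoter summits were found in 17.3% of Control-only regions (Wilson 95% interval 16 to 18.7%), in 24.3% of WT-only regions (23.4 to 25.3%) and in 20.5% of regions in all lists. The 5′UTR held 53 Control-only regions (1.78%) and 583 WT-only regions (6.89%). The 3′UTR held 277 (9.30%) and 351 (4.15%). Introns were the most common place for both, with 1442 Control-only (48.4%) and 3727 WT-only regions (44%), against 30.1% of regions in all 4 lists. Long noncoding RNA genes held 9.77% of Control-only and 16.6% of WT-only regions. These regions share their libraries and are not replicates of the groups.

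**Figure D3:**
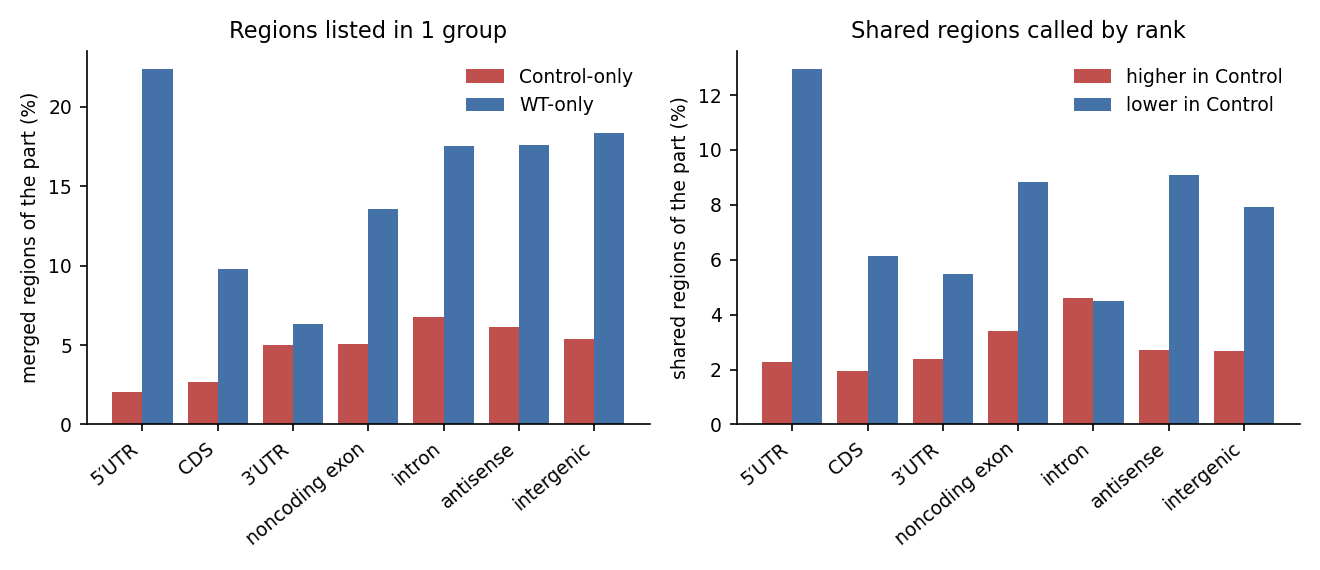
Bars give, for each gene part, the share (%) of merged regions listed in 1 group on the left and of shared regions called by rank on the right. The 5′UTR had the highest WT-only share (22.4%) beside the lowest Control-only share (2.04%).

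Base composition and the m6A motif were compared next. Windows with at least 10 CpG dinucleotides, here called CpG-rich and also defined after the data had been seen, made up 8.73% and 8.47% of the Control lists and 12.1% of each WT list. Of the Control-only regions 99 (3.33%) were CpG-rich, of the WT-only regions 1474 (17.4%), and of the shared regions 2378 (10.0%). GGACU was found in 28.8% of Control-only windows (27.2 to 30.4%), in 18.7% of WT-only windows (17.9 to 19.5%) and in 29% of shared windows. Over whole lists no such order appeared, because GGACU was in 29.1% of peaks of Control 1, 24.8% of Control 2, 25.5% of WT 1 and 25.5% of WT 2. The WT lists lay between the Control lists there (difference 1.44 points, exact permutation test, two-sided, p = 1). Without Control 1, the gap between the classes of group-only regions shrank from 10.1 to 2.1 points.

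Group-only regions were weaker than shared ones. Their median percentile was 28.4 for Control-only, 33.4 for WT-only and 65.0 for regions in all lists. The upper ends differed, since the strongest Control-only region reached a mean percentile of 89.9 and the strongest WT-only region 99.7. No Control-only region and 98 WT-only regions lay above 90. Median lengths were 291 bases for Control-only, 259 bases for WT-only and 595 bases for shared regions.

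**Figure D4:**
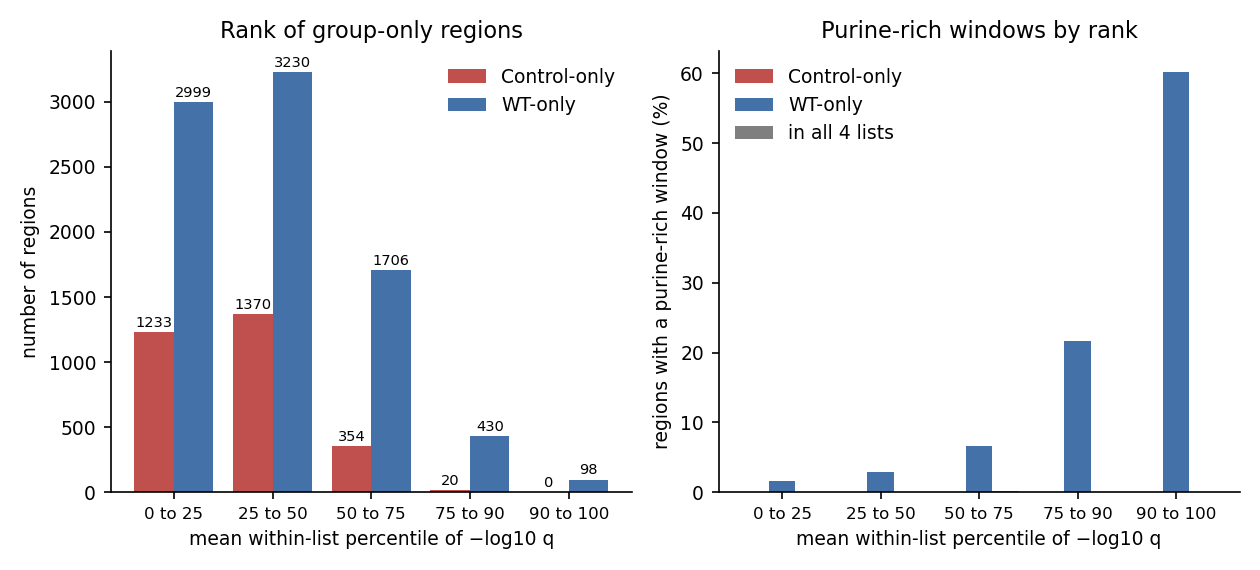
The left panel counts group-only regions by mean within-list percentile of −log10 q, and the right panel gives the share (%) that is purine-rich in each bin. The 98 WT-only regions above 90 have no Control-only counterpart, and 59 of them are purine-rich.

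The KD libraries, which the definition of the regions did not use, held most Control-only regions and few WT-only ones. KD 1 had a peak at 81.7% of Control-only, 10.5% of WT-only and 97.9% of shared regions. KD 2 had a peak at 66.9%, 7.39% and 94.1%. Both KD lists covered 1818 Control-only regions (61.1%) and 298 WT-only regions (3.52%), and neither covered 372 (12.5%) and 7246 (85.6%). The mean difference between the classes was 65.3 points, and it was 16.4 points without Control 1 and 46.0 points without Control 2. By the same rule, Control against KD gave 826 and 838 group-only regions of 47567 (3.5%), where Control against WT gave 20.3% and KD against WT 23.1%. These comparisons share libraries, so the values stand side by side without a test. The other lines did not favour Control-only regions, with HepG2 at 7.26% and 9.61% of them against 16% and 21.6% of WT-only regions.

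**Figure D5:**
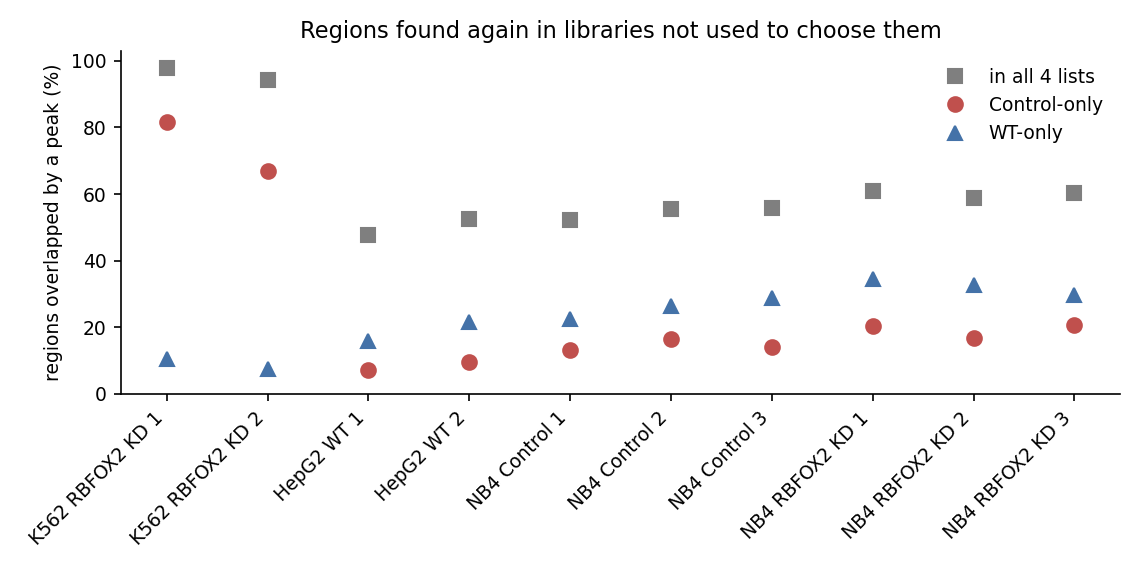
Points give the share (%) of regions overlapped by a peak in each of 10 lists that the definition of the regions did not use. In both K562 KD lists Control-only regions (circles) stand above WT-only regions (triangles), and in the other 8 lists they stand below.

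Of the 20 Control-only regions with a mean percentile above 75, 10 lay in introns, 3 in noncoding exons, 3 between genes, 2 antisense to a gene and 2 in 3′UTRs. The first was the 3′UTR of FOSB, an AP-1 transcription factor of the immediate early class, at chr19:45472695-45473269 in exon 4 of 4, at the 91.0th percentile in Control 1 and 88.8th in Control 2. A second Control-only region of FOSB lay in exon 1, at percentiles 75.3 and 66.5. FOSB had 2 peaks in each Control and KD list and none in the WT lists. THBS1, which encodes the secreted glycoprotein thrombospondin-1, had its Control-only peak in the last exon (22 of 22, chr15:39595592-39596070), at percentiles 78.6 and 82.9, with GGACU in the window. Regions in introns of DUS3L, a tRNA dihydrouridine synthase, and of POLR1E, a subunit of RNA polymerase I, stood at 87.0 and 69.2 and at 75.1 and 80.8. The EGFL7 intron shown above, in a gene for a secreted factor of endothelial cells, stood at 82.6 and 74.5. NBPF10 and NBPF14 introns were also among the first 10, but their sequence has 4 copies in the genome, so which copy gave the peaks is uncertain.

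The strongest WT-only regions were mostly the purine-rich ones. The first lay between genes at chr13:23159602-23160803 on the plus strand (percentiles 99.9 and 99.6) and was 70.2% purine, below the 80% used here. The region on chromosome 14 stood at 99.4 and 99.8 and one antisense to ANKDD1A at 99.6 and 99.5, and both had peaks in all 8 HepG2 and NB4 lists. AP3S2, which encodes a subunit of the AP-3 vesicle adaptor, stood at 99.2 and 98.5. TNFRSF8, the gene of the receptor CD30, stood at 98.1 and 99.6, and GNGT1, a G protein gamma subunit of photoreceptors, at 99.2 and 98.2. The region in exon 1 of ATOSA, chr15:52678551-52679357, was a 5′UTR at 98.4 and 97.8 with 12 CpG and 53% purines, and it too had peaks in all 8 lists of the other lines. Among WT-only 5′UTRs, chosen by their rank after the values were known, FOXP4, a forkhead transcription factor, stood at 89.7 and 92.4, and UNC5B, a netrin receptor, at 89.3 and 90.1.

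Some genes collected several group-only regions. Genes with at least 1 Control-only region numbered 1800 of 13222 genes with a peak (13.6%), and 4175 (31.6%) had at least 1 WT-only region. GSE1 held the most Control-only regions, 9 of 47, but also 8 WT-only ones. PRKAR1B, a regulatory subunit of protein kinase A, held 8 of 17, with 13 and 15 peaks in the Control lists, 7 and 6 in WT and 14 in each KD list. CENPF, a kinetochore protein, and TRRAP, a scaffold of histone acetyltransferase complexes, held 7 each, and GLB1L2 held 6 of 9. CENPF had 15 and 18 peaks in Control, 11 in each WT list and 15 and 13 in KD.

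The WT-only regions, more numerous in all, numbered 6386 within genes, spread over the 4175 genes above, where the Control-only regions within genes numbered 2317 over 1800. UPRT and XACT held 14 each, both on the X chromosome, and neither held a Control-only region. XACT is a long noncoding RNA that coats the active X chromosome in pluripotent cells. UPRT had 10 and 6 peaks in Control, 24 and 25 in WT and 14 and 12 in KD. PRKCB, the beta isoform of protein kinase C, held 13 of 21, with 3 and 5 peaks in Control, 17 and 18 in WT and 4 in each KD list. STEAP1B held 11 of 39. In windows of 1 Mb with at least 20 regions, of which there were 1030, the highest share of WT-only regions was 16 of 25 at X:12000001-13000000, and the highest share of Control-only regions was 7 of 20 at 11:134000001-135000000, where GLB1L2 lies. Whether the caller used input RNA as background is not given in the sources used here, so a peak that is missing cannot be told from a transcript that was too scarce to give one, and fewer cells making it cannot be told from less RNA per cell.

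Genes were then compared as a whole. A peak belonged to the gene at its summit. There were 335 genes with a peak in both Control libraries and in neither WT library (2.53% of the 13222), and 1189 with the reverse (8.99%). Of the 335 genes, 292 held a Control-only region, and of the 1189 genes, 1149 held a WT-only region. Of the 10 strongest of the Control kind, TRIM74, BCL2L2-PABPN1 and ENSG00000289764 had their peak in a region of all 4 lists, so the summit had moved between overlapping or near-identical gene models. ENSG00000225450, BTN2A3P and ENSG00000270190 held no Control-only region either, since no region had its strongest summit assigned to them. FOSB, THBS1 and MRPL47, a protein of the mitochondrial ribosome, held a Control-only region. On the WT side the first 10 included ACSM2B, a mitochondrial acyl-CoA synthetase (94.9 and 96.1), NDUFA4L2, a mitochondrial protein induced by low oxygen (96.7 and 93.9), SLC2A11, a sugar transporter (93.2 and 96.0), and GRIK5, a kainate receptor subunit (95 and 93.6). None of these 4 genes had a peak in a Control or KD list. Also among the first 10, ENSG00000272669 and ZNRF2P1 had their region in all 4 lists, and ENSG00000280355 held no WT-only region.

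At the 23702 shared regions the order of peaks differed too. Percentiles were turned into normal scores and compared with limma over all these regions. At a Benjamini-Hochberg adjusted p under 0.05, 734 regions (3.1%) ranked higher in Control and 1542 (6.51%) ranked lower. These counts rest on the trend that limma fits between spread and level. Without the trend no region passed in either direction, with 2705 higher and 3734 lower at an unadjusted p under 0.05, against 2927 and 4167 with it. Leaving out 1 library moved the counts from 188 to 3265 higher and from 347 to 5180 lower. They are given as an order of regions more than as a number.

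The regions called in each direction differed in kind. Those that ranked higher in Control had median percentiles of 81.9 in Control and 48.8 in WT, and 44.8% were intronic. Those that ranked lower had medians of 56.2 and 88.4, 31.6% were promoter regions and 28.7% were CpG-rich, against 8.90% of regions not called. Of the 26 shared purine-rich regions 13 ranked lower and 0 higher, and of the 2378 shared CpG-rich regions 442 (18.6%) ranked lower and 29 higher. In the KD libraries the higher regions had medians of 81.7 and 79.3 and the lower regions medians of 64.6 and 60.4. Regions not called had KD medians of 67.9 and 65.6. These medians cover only regions with a KD peak, which were 1498 and 1429 of the 1542 lower regions. The called regions were chosen by their WT values, so no count of KD against WT is given for them.

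FOXK2, a forkhead transcription factor, gave the clearest region of higher rank, in intron 2, with percentiles of 84.1 and 86.5 in Control and 3.76 and 5.45 in WT (score difference 2.74, SE 0.29, limma adjusted p = 0.00617). Introns of ESYT1, a lipid transfer protein of the endoplasmic reticulum, of ZNF598, a ubiquitin ligase for collided ribosomes, and of CAMSAP1, a microtubule minus-end protein, also ranked higher. The coding exon 1 of RBM15, an adaptor of the methyltransferase complex, stood at 98.7 and 99.2 against 94.7 and 95 (limma adjusted p = 0.0356).

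On the lower side, exon 38 of COL6A3, a collagen VI chain, had percentiles of 24.8 and 4.52 in Control and 99.5 and 99.3 in WT (score difference −3.71, SE 0.31, limma adjusted p = 0.00388). LINC01234 stood at 1.55 and 0.938 against 97.5 and 98.2, and the 5′UTR of URI1, a prefoldin-like chaperone, at 9.29 and 0.0650 against 91.5 and 86.6. Introns of CCNY (cyclin Y), RGS10, a regulator of G protein signalling, ATP9B, a lipid flippase, and NDUFA10, a subunit of complex I, moved the same way. The TGFB1 intron printed above, in the gene of the cytokine TGF-β1, stood at 34.5 and 58.4 against 94.8 and 94.3 (limma adjusted p = 0.0102).

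Lists of genes known to respond to a vector, to stress or to define the cells were read against the background over every gene, where 5.16% of regions were Control-only, 14.2% WT-only, and 3.17% of shared regions ranked higher and 6.15% lower. The integrated stress and unfolded protein response, which slows translation and raises chaperones, had regions in all 17 members. It held 0 Control-only and 7 WT-only regions of 42, and 8 of its 22 shared regions (36.4%) ranked lower in Control with 0 higher. These were regions of PPP1R15A, the phosphatase subunit that restores translation, with 2, and of CHAC1, TRIB3, SESN2, ATF3, HERPUD1 and ERN1. PPP1R15A exon 2 stood at 91.3 and 92.3 in Control and 98.9 and 98.4 in WT, and TRIB3 at 74.8 and 67.7 against 95.1 and 97.7. The p53 list, with regions in 15 of 17 members, had 1 Control-only and 6 WT-only regions of 37 and 4 of 18 shared regions lower, in BBC3, SESN2, GADD45A and CDKN1A. BBC3, the apoptosis activator PUMA, stood at 65.7 and 66.8 against 97.7 and 96.1. SESN2 belongs to both lists and ATF3 to the stress and the immediate early list.

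Immediate early genes answer growth factors and stress within minutes, and cytosolic ribosomal proteins build the translation machinery. Over all merged regions 5.27% were Control-only and 15% WT-only, and of all shared regions 3.1% ranked higher and 6.51% lower. The immediate early and heat shock list held 3 Control-only regions of 48, near that share, in FOSB and FOS, and 1 WT-only region. The best FOS peak stood only at percentiles 24.3 in Control 1 and 29.6 in Control 2. In this list 1 shared region ranked higher (DUSP1, a phosphatase of MAP kinases, 75 and 80.8 against 34.3 and 50.3) and 2 lower (ATF3 and IER5). Of the 84 ribosomal protein genes 33 had a region, with 10 Control-only and 8 WT-only regions of 60. The Control and WT lists held 24 and 26 against 18 and 18 of these genes, and 10 were listed in Control only and 3 in WT only. Of 18 shared regions 5 ranked higher, in RPL13, RPS24, RPL36, RPL28 and RPL22, and 0 lower. RPS24 stood at 79.3 and 79.6 in Control and 36.3 and 38 in WT. Ribosomal protein genes have many processed copies in the genome, so reads may be shared among them. The interferon and RNA sensing list, of interest for a vector, had regions in 12 of 24 members, with 3 Control-only and 6 WT-only regions of 29, and 0 of 9 shared regions passed in either direction.

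Markers of the line itself were present in both groups. Of 27 erythroid genes 23 had a region, and 6 of their 109 regions were Control-only and 23 WT-only (21.1%). Over all merged regions the shares were 5.27% and 15%. GATA1, the erythroid master transcription factor, held 4 WT-only regions, the strongest in intron 1 at 94.0 and 95.7. GYPB, a glycophorin, HBZ, an embryonic globin, and the globin HBA1 were listed in WT only, as were 8.99% of all genes with a peak. HBZ also had 1 peak in KD 2. Shared regions gave 3 higher and 2 lower of 46, beside 3.1% and 6.51% of all shared regions. Markers of other cells were thin, with regions in 5 of 14 megakaryocyte, 4 of 17 granulocyte and monocyte and 4 of 18 hepatocyte genes. The granulocyte and monocyte regions were 6 WT-only and 0 Control-only of 10, with AZU1, a granule protein, at 81.3 and 83.8 in WT, and 1 of 2 shared regions ranked lower, in SPI1. The hepatocyte regions were 3 WT-only and 0 Control-only of 7, and the megakaryocyte regions 3 and 1 of 26.

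The remaining lists were not tested, and their counts stand beside the shares over all regions. Of all merged regions 5.27% were Control-only and 15% WT-only, and of all shared regions 3.1% ranked higher and 6.51% lower. Histone genes held 0 Control-only and 6 WT-only regions of 62, and 2 of 35 shared regions ranked higher and 1 lower. Zinc finger genes held 32 and 141 of 1293, with 16 of 735 shared regions higher and 39 lower, each below the share over all regions. The list of m6A methyltransferases, which holds the METTL3-METTL14 complex and other enzymes, had 2 and 1 of 39 regions in the respective classes. Of its 21 shared regions 1 ranked higher, in RBM15, and 2 lower, in ZC3H13 of the complex and in PCIF1, a separate enzyme that methylates the adenosine next to the cap. Readers and erasers had 1 and 6 of 65, with 2 of 31 higher, both in introns of ELAVL1, an RNA-binding protein. Polycomb repressive complex 2 had 3 and 5 of 39, with 0 of 18 higher and 2 lower (AEBP2 and RBBP7). TGF-β signalling had 4 and 10 of 72, with 2 of 31 higher, both in LTBP1, and 4 lower, in TGFB1, SMAD7, SMAD3 and TGIF1. Nuclear long noncoding RNAs had 5 and 16 of 115, with 2 of 48 higher and 2 lower. Genes with human sequence common in hairpin vectors had no group-only region among 5.

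Genes followed elsewhere in the study were also looked up. RBFOX2, the RNA-binding protein that the other hairpin targets, had a Control-only region in intron 1 (chr22:35949612-35950008, percentiles 1.33 and 10.1) and a WT-only region in exon 1 (chr22:36028129-36028512, 48.1 and 65.4), so neither group lacked a peak there. SOCS1, a feedback inhibitor of cytokine signalling, had 1 region, WT-only, at 75.9 and 78.1. TGFB1 had 8 regions, of which 1 was Control-only, 2 WT-only and 3 shared. The other 2 loci of that list, H2AC8 and H2BC8, had no region, so its 9 regions counted 1 Control-only and 3 WT-only, and 1 of 3 shared regions ranked lower. METTL3 had 4 of 5 and YTHDC1 3 of 7 regions in all lists, with no group-only region in either.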

How the data were processed

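m6A IP libraries of chromatin-associated RNA were made from fractionated cells after depletion of ribosomal RNA, with a stranded total RNA kit. Per the submitters' processing notes, reads were handled with Trimmomatic 0.39, HISAT2 2.1.0, SAMtools 1.9 and MACS2 on hg38. The authors called peaks in each library by strand without a model, with an extension of 150 bases, up to 5 duplicates, a genome size of 1.3e+08 and q under 0.01. Whether the input libraries served as background is not given in the sources used here. Each deposited list gives an integer score, the fold enrichment (a ratio) at the summit and the −log10 of the p-value and q-value. Input libraries and chromosome Y were not analysed here.

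Peaks on chromosomes 1 to 22 and X were merged by strand where they overlapped by at least 1 base. Each peak was assigned at its summit to GENCODE release 44 (the authors used release 29). Library values were compared with two-sided exact permutation tests. Percentiles at regions of all 4 lists were turned into normal scores and tested with limma 3.58.1 (R 4.3.3, trend, Benjamini-Hochberg over 23702 regions), after the script had been tested on simulated data. Effective reads were recovered from fold and −log10 p. Other steps used Python 3.11.15, pandas 2.3.3, scipy 1.17.1 and pysam 0.24.0.

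Named regions were, in each direction, the 10 group-only regions of highest mean percentile with at most 1 per gene, the 5 genes with the most group-only regions, the 10 genes listed in 1 group with the strongest peak and the 10 regions of largest percentile difference among the calls, of which those with informative genes are described, along with members of the gene lists and genes the study followed. The members and lists were chosen with earlier results of these data known.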

Additional observations from a re-analysis of the deposited data

Results flagged for a closer look

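Purine-rich peaks, at least 80% A or G around the summit, were also counted in the 8 HepG2 and NB4 lists. These lists took no part in choosing the regions but were used above to look regions up. In all 8 the share of purine-rich peaks lay above that of both K562 Control libraries (0.0733% and 0.0988%). The share was 1.09% in HepG2 WT 1 and 0.936% in HepG2 WT 2. In NB4 cells it was 1.43%, 1.47% and 2.18% in the 3 Control libraries and 1.57%, 1.73% and 1.29% in the 3 RBFOX2 KD libraries. The HepG2 and NB4 lists come from other lines and were not tested against the K562 groups. Their local backgrounds differed too. The local background equalled the list-wide one at 0.0539% of peaks in NB4 Control 3, 0.0486% in HepG2 WT 1 and 0.0110% in HepG2 WT 2. It did so at 42.7% of peaks in NB4 Control 1, 64.7% in K562 WT 1 and 71.6% in K562 Control 1. The part of this difference in the purine-rich shares was not tested.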

How the results depend on the processing

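Of the results recomputed under each alternative, 25 values moved beyond the limit set for them, 5 changed sign and 144 did neither. For counts the limit was 1.5 times, and for library values with a test direction alone was judged. The limit for the KD recovery difference was the spread between the KD libraries. The GGACU and promoter differences at group-only regions had counting error over regions as their limit, which is not a spread between libraries. With lists cut to the size of the shortest, the difference in median width became −12 bases, the intron share 0.609 points, the antisense share 0.0882 points, genes listed in Control only 528 and the promoter share of group-only regions −9.27 points. That setting gives no value for the number of peaks, which it makes equal. With basic transcripts the intron share became 0.0249 points. Regions ranked higher and lower numbered 0 and 0 without the trend, 483 and 653 with quantile-normalized log2 fold. Leaving out each library in turn gave 188 to 3265 higher and 347 to 5180 lower, 3723 to 8200 Control-only regions, 453 to 652 genes listed in Control only, a covered length difference of −0.27 to −0.02 (log2), a median width difference of 1.5 to 32.5 bases, an antisense difference of −0.590 to −0.0541 points, a GGACU share difference of −0.697 (without Control 1) to 3.59 points, a KD recovery difference of 16.4 to 67.3 points, a GGACU difference at group-only regions of 2.1 to 11.7 points and a promoter difference there of −10.0 to −4.45 points. For limma, leaving 1 library in a group assumes that it varies like the other pair. For region counts, fewer lists are required, which raises them by construction. For the other changes the cause was not tested.

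With the replicate number as a block, 1539 regions ranked higher and 2828 lower. The correlation of deviations between libraries of the same number was −0.00721. With 2 libraries in each group the deviations mirror each other, so this value cannot decide whether libraries of the same number share more than the number. Settings without purine-rich peaks, alone or with summits scaled to equal depth, were chosen after seeing the data and gave 2988 and 3021 Control-only and 7985 and 7859 WT-only regions. Depth limits weak peaks most, and no input counts were used.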
